A study of Mus musculus with 18 samples.

Results

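The keratin family was examined in mouse palate at embryonic day 15.5, the stage at which the palate is forming. Members were taken by gene symbol: every gene whose symbol is Krt followed by a number, with a letter where there is one, and that had at least 1 probe set annotated with that symbol alone. This gave 48 keratin genes of 18193 measured genes, 24 on chromosome 11 and 24 on chromosome 15. The rule uses no expression value, although the family was picked with earlier results of these data known. The best known members fall into 4 classes: basal (Krt5, Krt14, Krt15), simple (Krt8, Krt18), stress (Krt6a, Krt6b, Krt16, Krt17) and mucosal (Krt4, Krt13).

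The study hybridised RNA of dissected palate tissue to 18 Affymetrix arrays, 6 in each of 3 groups. Mutant posterior palate came from K14-Cre;Tgfbr2 fl/fl embryos, control posterior palate from Tgfbr2 fl/fl embryos, and control anterior palate also from Tgfbr2 fl/fl embryos. All groups were of strain C57BL/6J and age E15.5, and all carried both floxed Tgfbr2 alleles. The controls therefore differ from mutants in lacking Cre, although one label field calls them wild type. Cre was driven by the promoter of Krt14, itself a member of the family, so the receptor is deleted in epithelium with K14-Cre activity and not in mesenchyme or muscle. The series' design text places mutants and controls in different litters, so litter and genotype cannot be told apart. No label ties an array to an embryo or says whether embryos were pooled, so each p-value rests on the spread between arrays of a group, which may be technical.

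Keratins are the intermediate filament proteins of epithelial cells. A filament is built from pairs of 1 acidic type I keratin and 1 basic type II keratin, and the pair in use changes with the cell layer and tissue. Krt5 with Krt14 is the pair of the basal layer of stratified epithelia, Krt8 with Krt18 that of simple epithelia, and Krt4 with Krt13 that of the suprabasal layers of moist mucosa such as the mouth and oesophagus. Krt6a, Krt6b, Krt16 and Krt17 are induced in wounded or hyperproliferative epidermis, and Krt17 and Krt6a also mark the periderm, the flat outer layer of embryonic epithelium. The medial edge epithelium of the palatal shelves responds to TGF-beta ligands during palate fusion.

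The 250 bases before the start sites of 4 keratin genes are given because these genes stand for the contrast described below. Krt13 and Krt79 were called higher in mutants, and Krt5 and Krt14 are the basal pair, neither of which was called. Sequences and positions are from RefSeq, build GRCm38.p6, all on the minus strand and written 5′ to 3′ towards the start. Capitals mark matches to TGANTCA, where N is any base, a looser form of the AP-1 site TGACTCA. The windows are chr11:100121567-100121816 for Krt13 start 1, chr11:100120578-100120827 for Krt13 start 2, chr15:101940325-101940574 for Krt79, chr15:101712906-101713155 for Krt5 and chr11:100206031-100206280 for Krt14.
Krt13 start 1: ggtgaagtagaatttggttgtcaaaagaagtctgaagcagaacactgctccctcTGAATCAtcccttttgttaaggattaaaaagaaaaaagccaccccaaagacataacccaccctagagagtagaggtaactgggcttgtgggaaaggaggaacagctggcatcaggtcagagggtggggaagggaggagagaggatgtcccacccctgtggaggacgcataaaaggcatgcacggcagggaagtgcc
Krt13 start 2: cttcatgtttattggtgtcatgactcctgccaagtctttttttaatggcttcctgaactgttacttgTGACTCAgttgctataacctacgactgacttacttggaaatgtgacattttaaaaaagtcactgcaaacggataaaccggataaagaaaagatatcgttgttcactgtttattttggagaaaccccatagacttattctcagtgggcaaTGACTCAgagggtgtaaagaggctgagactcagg
Krt79: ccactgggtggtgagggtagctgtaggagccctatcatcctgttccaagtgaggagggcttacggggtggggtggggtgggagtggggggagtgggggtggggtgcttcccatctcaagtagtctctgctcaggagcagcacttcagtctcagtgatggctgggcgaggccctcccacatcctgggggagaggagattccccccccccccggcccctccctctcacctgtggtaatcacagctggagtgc
Krt5: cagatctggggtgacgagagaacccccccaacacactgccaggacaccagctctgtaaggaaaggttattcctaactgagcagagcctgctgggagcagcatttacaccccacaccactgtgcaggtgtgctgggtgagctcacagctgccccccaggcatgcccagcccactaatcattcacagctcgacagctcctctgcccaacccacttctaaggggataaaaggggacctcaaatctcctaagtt
Krt14: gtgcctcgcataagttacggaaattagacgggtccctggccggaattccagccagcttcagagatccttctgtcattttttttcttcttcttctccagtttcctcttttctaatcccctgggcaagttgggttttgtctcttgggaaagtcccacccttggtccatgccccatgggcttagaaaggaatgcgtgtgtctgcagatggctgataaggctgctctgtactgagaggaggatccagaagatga

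The RefSeq promoter table held 33 windows for 32 of the 48 keratins, among them 5 of the 11 class members (Krt5, Krt14, Krt8, Krt18 and Krt13). Searched on both strands, TGANTCA was found in 2 of 33 keratin windows (6.06%), against 6.75% of 32851 windows of all genes. Both keratin windows were those of Krt13, with the match at position -196 in the first and at -183 and -34 in the second, counted from the start site. TATAAA, the letters of a TATA box, was found in 16 of 33 keratin windows (48.5%), against 12.4% of all windows. These exact letters were absent from the 5 windows printed and present at -26 in Krt10 and -47 in Krt33b. Near matches were not searched, so the printed windows were not shown to lack a TATA-like element. CACCC, letters bound by KLF factors, was found in 27 of 33 keratin windows (81.8%), against 52.0% of all. CAGAC, letters bound by SMAD factors, was found in 17 (51.5%), against 42.2%. No match of 1 motif overlapped a match of another in the windows of Krt13, Krt79, Krt5 and Krt14.

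Values are log2 expression values from RMA (robust multi-array average), so a difference of 1 is a 2-fold difference. A gene is represented by the brightest of its probe sets, and levels of different genes are not compared, since probe sets differ in brightness for reasons other than RNA. Of the 48 keratins, 11 had a mean over 10 and 15 lay above the median of all gene means (7.38). The other 33 did not, and a low value may be background, because detection calls were not used here. Mean levels over all arrays were 11.999 to 13.27 in the basal class, 11.74 and 12.93 in the simple class, 6.89 to 11.97 in the stress class and 10.73 and 10.87 in the mucosal class. The 12 hair cortex and cuticle keratins had means of 3.56 to 6.79, and the 8 keratins of the hair inner root sheath and companion layer 3.06 to 7.03.

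Array means lay between 6.26 and 6.37. Without control probe sets, mutant arrays 1 to 3 read 6.35 to 6.36 and mutant arrays 4 to 6 read 6.27 to 6.28. Control posterior arrays read 6.25 to 6.27 and control anterior arrays 6.26 to 6.27. The mean of the inner root sheath and companion layer keratins, which are dim, was 4.81 to 4.90 in mutant arrays 1 to 3. In mutant arrays 4 to 6 that mean was 4.67 to 4.68. The cause of this offset was not tested. The brightest Tgfbr2 probe set averaged 11.01 ± 0.27 in mutant posterior and 10.46 ± 0.20 in control posterior palate (SD, n = 6 each; log2 difference 0.55, adjusted p = 0.00879, limma). Its position relative to the deleted part of the gene was not examined, so it checks no label. Labelling spike-in probe sets averaged 6.90 ± 0.45 in mutant posterior palate, 8.78 ± 0.60 in control posterior palate and 8.72 ± 0.66 in control anterior palate (SD, n = 6 each). Every mutant array (6.39 to 7.73) lay below every control posterior array (8.12 to 9.43) on these probe sets. Differences in sample handling that they reflect cannot be told apart from genotype. Control arrays numbered 1 to 3 read 8.11 to 8.30 on these probe sets and those numbered 4 to 6 read 9.05 to 9.66. Mutant arrays overlapped between these numbers on the labelling probe sets, but on hybridisation spike-in probe sets mutant arrays 1 to 3 read 11.71 to 12.21 and mutant arrays 4 to 6 read 11.06 to 11.18. Mutant array 1 stood apart in the mean of 14 epithelial genes that are not keratins (such as Cdh1 and Epcam), at 7.35, the lowest of all 18 arrays. That mean was 9.01 ± 0.89 in mutant posterior, 9.47 ± 0.16 in control posterior and 9.90 ± 0.26 in control anterior palate. In whole tissue, fewer epithelial cells and less RNA per cell cannot be told apart.

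In posterior palate, mutants had more RNA of the mucosal keratins Krt4 and Krt13, of the stress keratin Krt6b, and of Krt1 and Krt79 than controls. In measured values Krt13 differed by 5.20-fold, Krt4 by 3.49-fold and Krt1 by 2.24-fold. Krt6b differed by 12.8-fold and Krt79 by 1.65-fold, but their control values lie below the median of all genes and were not shown to be above background, so these folds may not be those of the RNA. With sets of arrays as a random block, described below, Krt79 alone stayed called, and the adjusted p was 0.05001 for Krt4, 0.0518 for Krt6b, 0.0779 for Krt13 and 0.196 for Krt1. In the fit of all 18 arrays no keratin was called lower by limma. The 12 keratins with an unadjusted p under 0.05 in that fit all had a positive difference. The brightest basal and simple keratins were not called.

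A gene was called at an adjusted p under 0.05 from limma, with Benjamini-Hochberg adjustment over all 18193 genes. Between mutant and control posterior palate 13.5% of the 18193 genes were called, 7.73% higher and 5.73% lower. Among the 48 keratins 5 were called (10.4%), all higher, so the share of called keratins was not above that of all genes. Of these 5, 4 lie on chromosome 15 and 1, Krt13, on chromosome 11. The groups did not overlap for 4 keratins, all higher in mutants (Krt4, Krt13, Krt6b and Krt79), against 3.52% of all genes whose mutant values all lay above the control values, and for 0 keratins in the other direction, against 3.03%. The median difference of the 48 keratins was 0.07, with 31 positive, and that of all genes was 0.04.

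**Figure D1:**
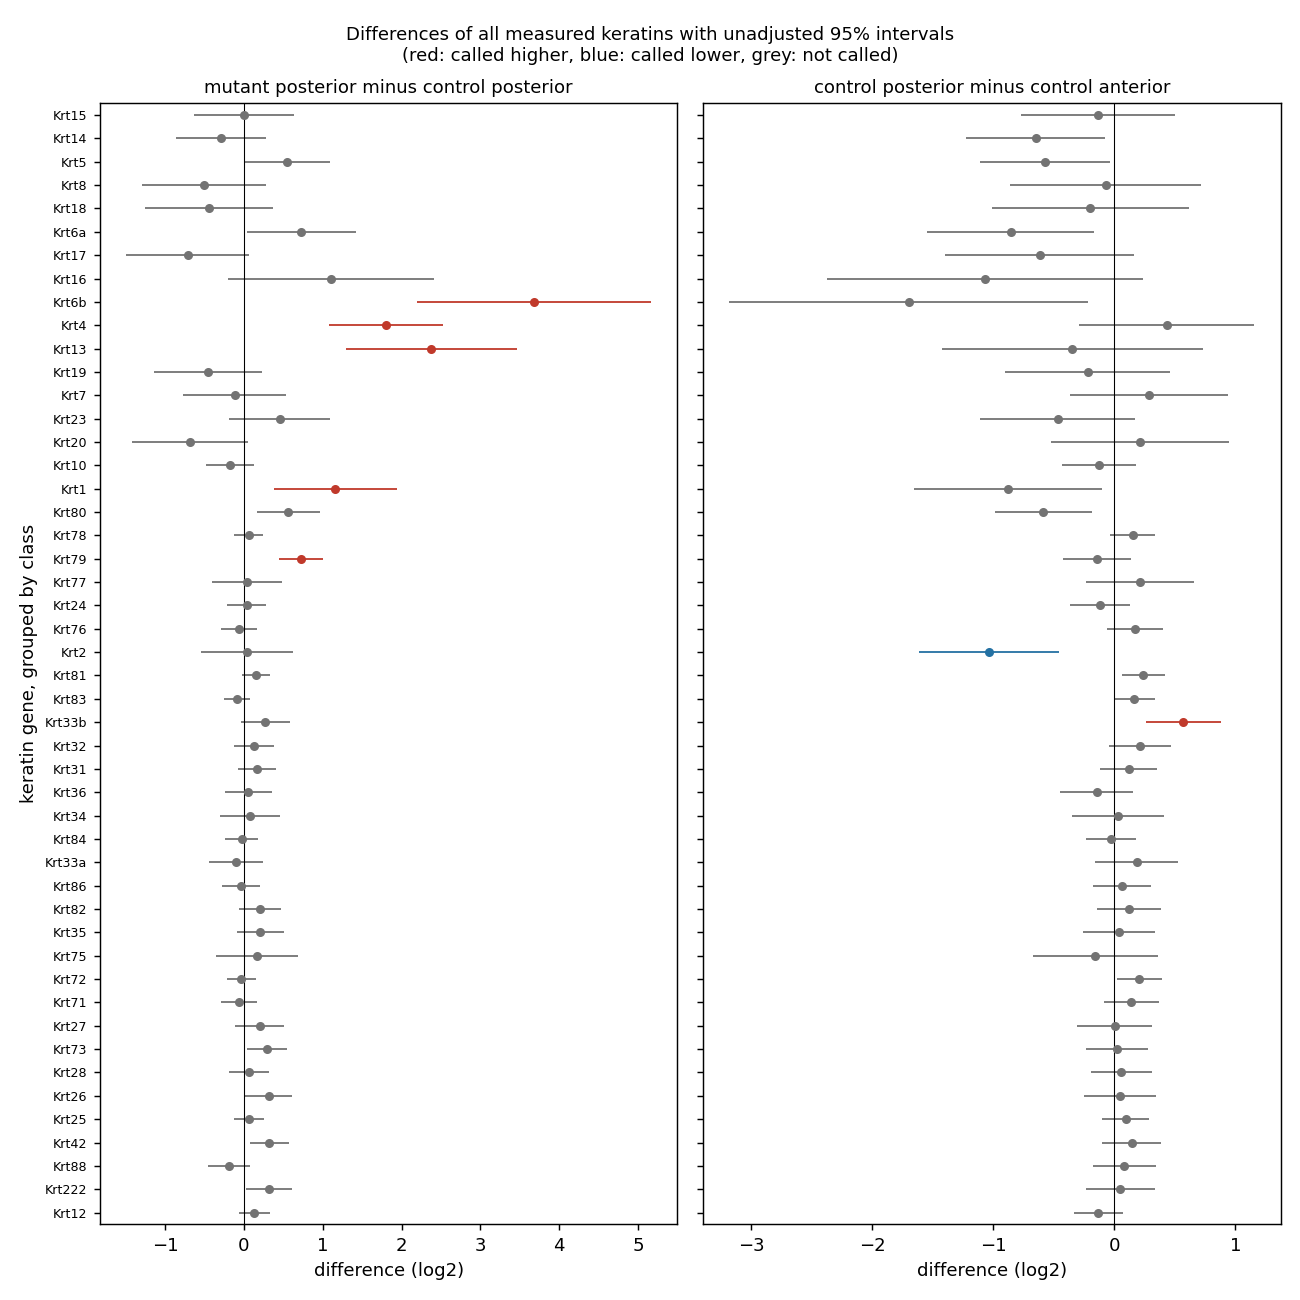
Difference (log2) of each of the 48 measured keratins, with unadjusted 95% intervals, for mutant posterior minus control posterior and for control posterior minus control anterior. Red points were called higher and blue points lower at an adjusted p under 0.05; Krt6b stands farthest out on the genotype side at 3.68, and Krt33b and Krt2 are the called genes on the region side.

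Krt4, the type II partner of the mucosal pair, had a lowest value of 11.32, a median of 12.33 and a highest value of 13.06 in mutant posterior palate, against 9.46, 10.67 and 11.02 in control posterior palate. All 6 mutant arrays lay above all 6 control arrays. The difference was 1.81 (SE 0.34, 95% interval 1.08 to 2.53, adjusted p = 0.00252, limma). Its other probe set differed by 1.92 (adjusted p = 0.00255 over all probe sets).

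Krt13, the type I partner, read 11.07, 12.35 and 13.18 (lowest, median, highest) in mutant posterior palate, against 8.63, 9.89 and 11.04 in control posterior palate. The groups again did not overlap, although the lowest mutant and the highest control array nearly met. The difference was 2.38 (SE 0.51, 95% interval 1.3 to 3.46, adjusted p = 0.00547, limma). Both other Krt13 probe sets were also called, at 2.52 (adjusted p = 0.00563) and 1.93 (adjusted p = 0.0232).

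Krt6b showed the largest positive difference of all 18193 genes. It read 5.58, 9.52 and 10.24 in mutant posterior palate (lowest, median, highest), against 4.72, 5.16 and 5.44 in control posterior palate. The control values were all low and close together, and 5 of 6 mutant arrays lay far above them. The exception was mutant array 1 at 5.58, just above the highest control array. The difference was 3.68 (SE 0.70, 95% interval 2.20 to 5.16, adjusted p = 0.00257, limma), and 4.32 (adjusted p = 0.000119) without mutant array 1. Krt6b has 1 probe set and a close paralog, Krt6a, and cross-hybridisation between them was not tested.

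The 3 other stress keratins were not called. Krt6a read 10.79, 12.43 and 12.91 in mutant posterior palate, against 10.97, 11.42 and 12.12 in control posterior palate. The ranges overlapped: mutant arrays 1 and 4 lay below the highest control array, and array 1 had the lowest value of both groups. Its difference was 0.73 (SE 0.33, adjusted p = 0.15, limma), and its other probe sets gave 1.08 (adjusted p = 0.102) and 0.92 (adjusted p = 0.112). Krt16, a type I partner of the Krt6 proteins, read 5.08, 8.54 and 9.54 in mutant posterior palate, against 6.35, 6.79 and 7.64 in control posterior palate. Its mutant values spanned the control values on both sides, and the difference was 1.11 (SE 0.61, adjusted p = 0.252). Krt17 read 8.81, 10.53 and 11.92 in mutant posterior palate, against 10.81, 11.15 and 11.68 in control posterior palate. The Krt17 difference was -0.71 (SE 0.37, adjusted p = 0.218), the opposite sign to the other stress keratins. Without mutant array 1, Krt6a at 1.01 (adjusted p = 0.0227), Krt16 at 1.70 (adjusted p = 0.0245) and Krt5 at 0.75 (adjusted p = 0.0319) were called higher and Krt1 was no longer called. In that fit 7 keratins were called, all higher, where 6.67% of all genes were called higher.

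**Figure D2:**
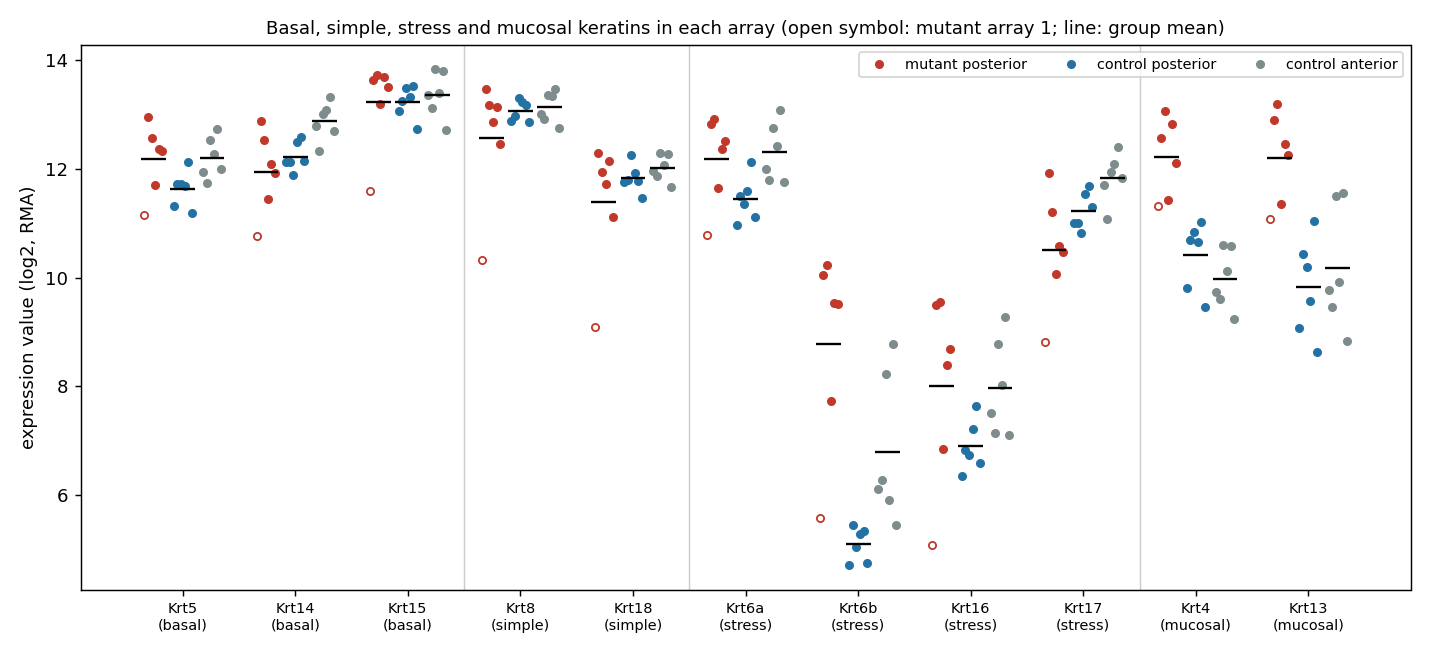
Expression value (log2, RMA) of the 11 basal, simple, stress and mucosal keratins in each of the 18 arrays, with mutant posterior, control posterior and control anterior arrays from left to right and a line at each group mean. The mutant values of Krt4, Krt13 and Krt6b lie above all control posterior values, and the open symbol, mutant array 1, is the lowest mutant array for all 11 genes.

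The basal and simple keratins differed less. Krt5 read 11.15, 12.34 and 12.95 in mutant posterior palate, against 11.19, 11.69 and 12.13 in control posterior palate, a difference of 0.55 (SE 0.25, adjusted p = 0.164). Its partner Krt14 read 10.77, 12.001 and 12.87 in mutant posterior palate, against 11.89, 12.13 and 12.58 in control posterior palate, a difference of -0.29 (SE 0.27, 95% interval -0.86 to 0.28, adjusted p = 0.522). Krt15, a basal type I keratin, averaged 13.23 ± 0.82 in mutant posterior and 13.23 ± 0.30 in control posterior palate (SD, n = 6 each). For Krt15 the 95% interval of the difference was -0.64 to 0.63. Ranges overlapped for all 3 basal keratins.

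Krt8 averaged 12.57 ± 1.15 in mutant posterior and 13.07 ± 0.19 in control posterior palate, a difference of -0.50 (SE 0.37, adjusted p = 0.403). Krt18 averaged 11.38 ± 1.20 in mutant posterior and 11.82 ± 0.26 in control posterior palate (SD, n = 6 each), a difference of -0.44 (SE 0.38, adjusted p = 0.488). The distance between the probe sets of the simple pair within an array, which has no meaning as a level, had overlapping ranges in the groups: Krt8 minus Krt18 was 1.18 ± 0.12 in mutant posterior, 1.25 ± 0.14 in control posterior and 1.12 ± 0.09 in control anterior palate.

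Distances between keratins within an array do not depend on a change that all of them share, as long as their values lie above background. They were chosen with the results above known and are given as descriptions, without a test. Krt5 minus Krt14 lay between 0.04 and 0.40 in mutant posterior arrays and between -0.95 and -0.18 in control posterior arrays, without overlap. Krt6a minus Krt14 lay between -0.06 and 0.58 in mutant posterior and between -1.15 and -0.45 in control posterior arrays. Krt6b minus Krt14 averaged -3.16 ± 1.12 in mutant posterior and -7.13 ± 0.30 in control posterior arrays. For each of these distances every mutant array, array 1 included, lay above every control posterior array. Krt14 itself differed by -0.29 (not called), which adds to each mean distance. How many of all genes would separate from Krt14 in the same way was not computed. Krt6b was not shown to be above background in control posterior arrays or in mutant array 1. Its distance there may follow Krt14 alone, and Krt14 in mutant array 1 lay below all control posterior values.

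The mucosal keratins moved against Krt14 in the same direction. Krt4 minus Krt14 lay between -0.30 and 0.73 in mutant posterior and between -2.68 and -1.04 in control posterior arrays. Krt13 minus Krt14 lay between -0.08 and 0.65 in mutant posterior and between -3.51 and -1.54 in control posterior arrays. Ranges overlapped for Krt16 minus Krt14, at -3.93 ± 1.03 in mutant posterior and -5.33 ± 0.29 in control posterior arrays. They also overlapped for Krt17 minus Krt14, at -1.95 to -0.95 in mutant posterior and -1.12 to -0.85 in control posterior arrays.

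**Figure D3:**
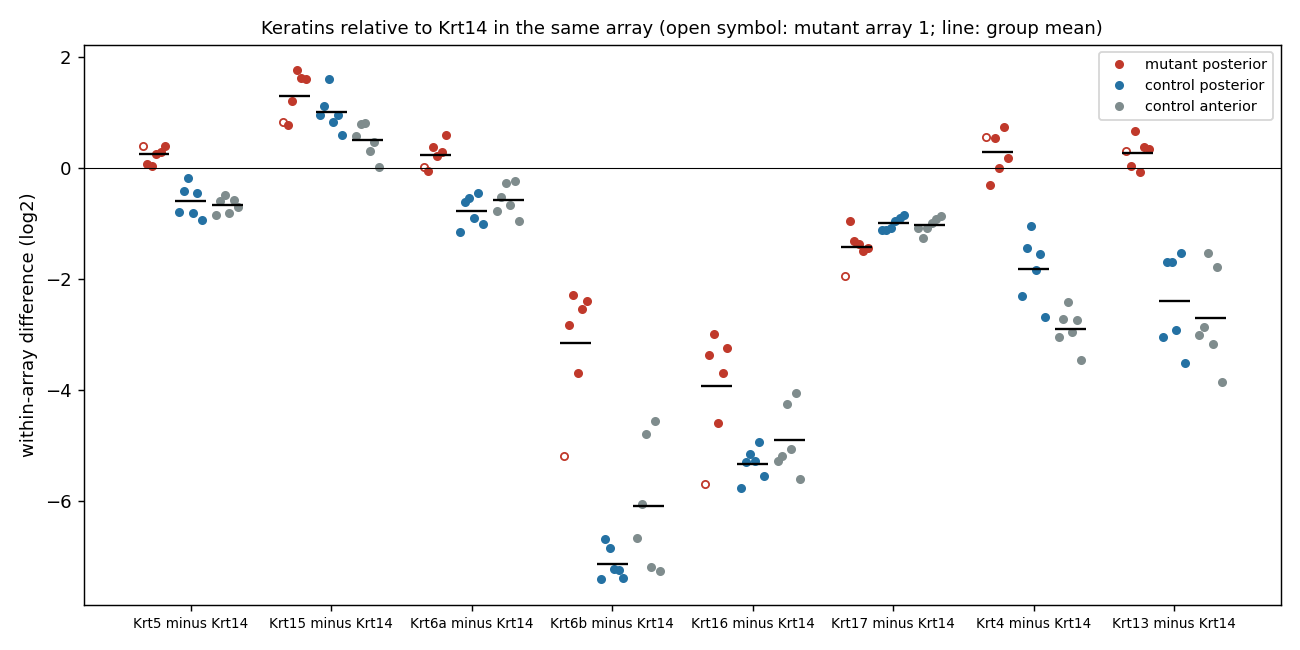
Difference (log2) between each of several keratins and Krt14 within the same array, for mutant posterior, control posterior and control anterior arrays, with a line at each group mean. For Krt5, Krt6a, Krt6b, Krt4 and Krt13 the mutant posterior arrays lie above all control posterior arrays, and the open symbol marks mutant array 1.

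Against the mean of the non-keratin epithelial genes in the same array, the mean of the mucosal class was 3.19 ± 0.55 higher in mutant posterior and 0.65 ± 0.67 higher in control posterior palate. The stress class mean stood at 0.85 ± 0.60 in mutant posterior and -0.81 ± 0.26 in control posterior palate relative to the same genes, without overlap between the groups in either class. The basal class mean stood at 3.43 ± 0.26 in mutant posterior and 2.89 ± 0.15 in control posterior palate, also without overlap. Of the basal members Krt5 did not overlap (difference 1.01), while Krt14 (0.17) and Krt15 (0.46) did. Of the stress members Krt6a (1.19) and Krt6b (4.14) did not overlap, while Krt16 (1.57) and Krt17 (-0.25) did. The simple class mean overlapped, at 2.96 ± 0.36 in mutant posterior and 2.97 ± 0.21 in control posterior palate. All 14 non-keratin epithelial genes had a negative genotype difference (median -0.44), and limma called 0 of them, with 2 at an unadjusted p under 0.05. Their lower mean in mutants raises any distance to it there. How many of all genes would separate in this way was not computed.

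With that mean as a covariate in the fit, 11 keratins were called between mutant and control posterior palate, all higher, where 6.4% of all genes were called higher. The 6 keratins added were Krt5 at 0.89 (adjusted p = 0.00118), Krt6a at 1.16 (adjusted p = 0.0014), Krt16 at 1.98 (adjusted p = 0.00088), Krt23 at 0.83 (adjusted p = 0.015), Krt75 at 0.48 (adjusted p = 0.0494) and Krt80 at 0.69 (adjusted p = 0.0263). Krt4 stood at 2.15, Krt13 at 2.85 and Krt6b at 4.59 in this fit. Since the covariate itself was lower in mutant arrays, the fit raises the difference of every gene that follows it.

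**Figure D4:**
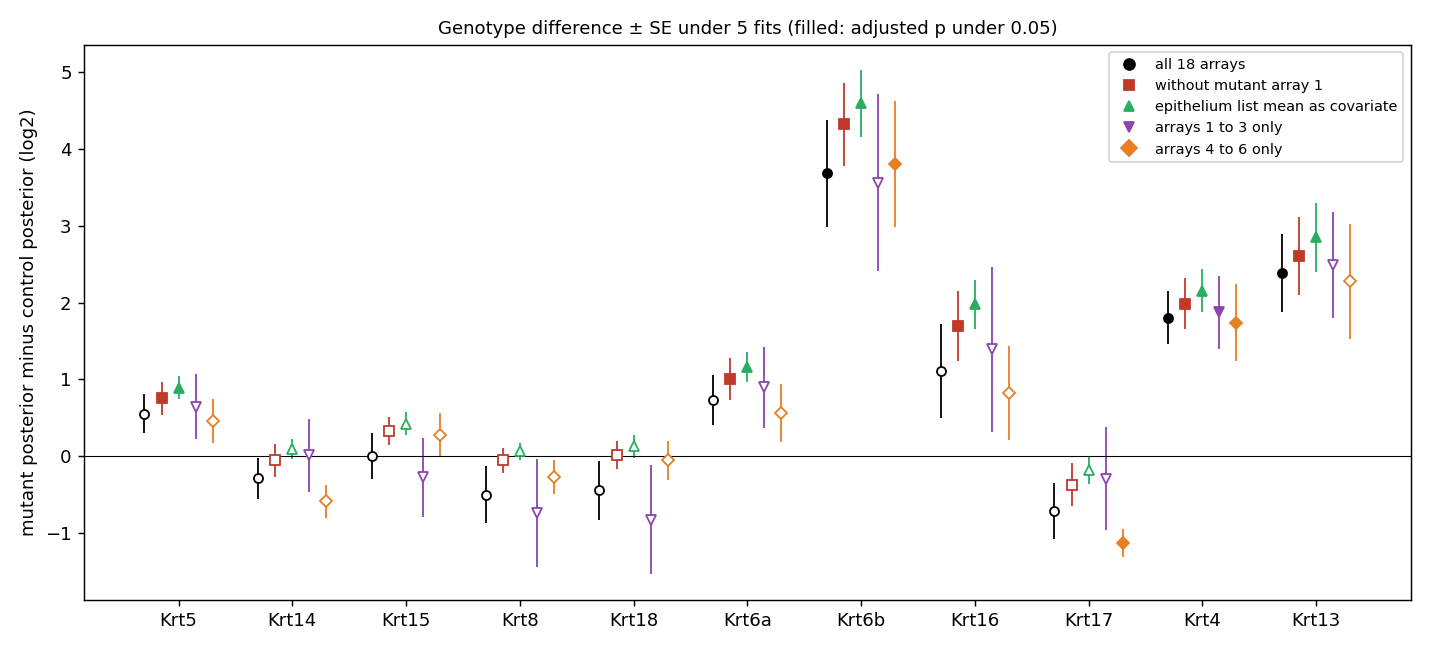
Mutant posterior minus control posterior difference (log2) ± SE of the 11 class keratins under 5 fits, with filled symbols where the adjusted p is under 0.05. Krt4, Krt13 and Krt6b keep a positive difference of more than 1 in each fit, and no symbol of Krt14, Krt15, Krt8 or Krt18 is filled.

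Of 9 keratins listed as suprabasal in epidermis and palate, 2 were called higher, Krt1 and Krt79, where 7.73% of all genes were. The median difference of the 9 was 0.04. Krt1, the type II keratin of the differentiating epidermis, read 7.18, 8.52 and 9.69 in mutant posterior palate, against 7.31, 7.41 and 7.69 in control posterior palate. The ranges overlapped at mutant array 4 alone, which lay below all control arrays, and the difference was 1.16 (SE 0.37, adjusted p = 0.0428). Its adjusted p was over 0.05 when any of 13 of the 18 arrays was left out. Krt10, the type I partner of Krt1, averaged 9.15 ± 0.38 in mutant posterior and 9.33 ± 0.13 in control posterior palate (SD, n = 6 each; difference -0.18, adjusted p = 0.454).

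Krt79, which in mouse skin marks the upper hair follicle and sebaceous duct, read 5.56, 5.90 and 6.35 in mutant posterior palate, against 4.98, 5.17 and 5.43 in control posterior palate. The groups did not overlap, and the difference was 0.73 (SE 0.13, adjusted p = 0.00198). These values are below the median of all genes, where background may make up part of the signal. Krt80 differed by 0.57 (adjusted p = 0.0547) with overlapping ranges.

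No member of the other classes was called by genotype. Krt19, a type I keratin of simple and ductal epithelia, averaged 11.47 ± 0.97 in mutant posterior and 11.92 ± 0.23 in control posterior palate (difference -0.45, adjusted p = 0.385). Krt7, a type II keratin of ducts, averaged 10.21 ± 0.89 in mutant posterior and 10.32 ± 0.21 in control posterior palate (difference -0.11, adjusted p = 0.849). Krt42 averaged 8.20 ± 0.25 in mutant posterior and 7.87 ± 0.18 in control posterior palate (difference 0.33, adjusted p = 0.067). Differences of the 12 hair cortex and cuticle keratins ran from -0.10 to 0.27, and those of the 8 inner root sheath and companion layer keratins from -0.06 to 0.31.

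Spike-in values separated arrays 1 to 3 from arrays 4 to 6, in controls by the labelling and in mutants by the hybridisation probe sets. The called keratins were therefore also set out for each of these ranges of numbers. Mutant and control arrays of the same numbers also differed in labelling spike-in values. These fits therefore do not compare the genotypes within 1 set of arrays. Krt4 differed by 1.87 and 1.74, Krt79 by 0.70 and 0.75, and both were called in each range of numbers. Of all genes, 4.68% (arrays 1 to 3) and 9.78% (arrays 4 to 6) were called higher there. Krt6b differed by 3.56 in arrays 1 to 3 (adjusted p = 0.0907) and by 3.80 in arrays 4 to 6 (adjusted p = 0.0156). Krt13 differed by 2.48 (adjusted p = 0.0584) and 2.27 (adjusted p = 0.0662). Krt1 differed by 1.82 (adjusted p = 0.024) in arrays 1 to 3 and by 0.50 (adjusted p = 0.517) in arrays 4 to 6. Some keratins were called lower in arrays 4 to 6: 1 stress keratin (Krt17), 1 other simple and ductal keratin and 1 suprabasal keratin. In that fit 3345 of all genes were called, 1780 of them higher. With 4 sets (2 of mutant and 2 of control arrays) as a random block, Krt79 alone stayed called (adjusted p = 0.0436), where 1.52% of all genes were called higher.

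Between the regions of control palate, 10 of the 11 class keratins had a negative difference, posterior minus anterior, and Krt4 a positive one. Krt6b, Krt16, Krt6a, Krt14, Krt17 and Krt5 differed by -1.70, -1.07, -0.86, -0.65, -0.62 and -0.57, and none of these 6 was called in the fit of all 18 arrays. Krt33b was called higher and Krt2 lower in posterior palate. These comparisons share the control posterior arrays with the genotype comparison, so their signs are not independent.

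Of all genes, 3.82% were called between control posterior and control anterior palate, 1.7% higher and 2.12% lower, and of the 48 keratins 2 were called (4.17%). Krt33b, a hair keratin, read 6.49, 6.65 and 6.80 in control posterior palate, against 5.80, 6.12 and 6.28 in control anterior palate (difference 0.57, SE 0.15, adjusted p = 0.0356, limma). Krt2, a keratin of the upper epidermal layers, read 3.36, 3.43 and 3.54 in control posterior palate, against 3.74, 4.28 and 5.72 in control anterior palate (difference -1.04, SE 0.27, adjusted p = 0.0406). The groups did not overlap for either gene, and both are dim. Groups were also separate for Krt72, above in posterior palate, and for Krt80 and Krt6b, below, which makes 2 keratins above and 3 below, against 2.65% and 3.67% of all genes.

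Equal replicate numbers of the control arrays were taken to pair the samples, from correlations that shared sets of arrays could also give. In a fit of the 12 control arrays with the replicate number as a block, chosen after seeing the data, 13 keratins were called between posterior and anterior palate. Of these, 3 were higher (Krt33b, Krt4 and Krt72) and 10 lower, where 6% of all genes were called higher and 11.3% lower. The lower ones included Krt6b (adjusted p = 0.0249), Krt6a (adjusted p = 0.00357), Krt16 (adjusted p = 0.0131), Krt17 (adjusted p = 0.011), Krt14 (adjusted p = 0.00538) and Krt5 (adjusted p = 0.00828). The other 4 lower ones were Krt1 at -0.88, Krt2 at -1.04, Krt23 at -0.47 and Krt80 at -0.59. Krt4 was higher by 0.43 (adjusted p = 0.0406), and its partner Krt13 differed by -0.35 (adjusted p = 0.332). Krt8, Krt18 and Krt15 were not called in the blocked fit. With the sets of control arrays as the block in place of the numbers, 9 keratins were called, 2 higher and 7 lower, where 6.07% of all genes were called higher and 11.1% lower.

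Krt6b in control anterior palate varied more than in control posterior palate, at 6.79 ± 1.36 with values of 5.45 to 8.78, against 5.10 ± 0.31 in posterior palate. Control anterior arrays 3 and 5 were the 2 highest of their group for 9 of the 11 class keratins, the exceptions being Krt14 and Krt17. Non-keratin epithelial genes moved with the region difference: 2 of 14 were called lower in posterior palate in the fit of all arrays (median of the list -0.31), and 9 of 14 in the blocked fit. The 2 were Lamb3 at -0.93 (adjusted p = 0.024) and Col17a1 at -1.08 (adjusted p = 0.0425), both parts of the junction between basal cells and basement membrane. With the mean of these genes as a covariate, Krt8 at 0.45 (adjusted p = 0.0259), Krt7 at 0.71 (adjusted p = 0.00176) and Krt33b at 0.69 (adjusted p = 0.00484) were called, all higher in posterior palate, where 2.01% of all genes were. The part of epithelial content in these differences was not tested beyond that fit.

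Proteins that bind keratin filaments were followed as a list of 12 genes. By genotype, 1 was called higher and 1 lower, with a median difference of 0.12. Plec, the cytolinker plectin, averaged 10.07 ± 0.22 in mutant posterior and 9.45 ± 0.15 in control posterior palate, a difference of 0.62 (SE 0.10, adjusted p = 0.00105). Its mutant values of 9.75 to 10.41 lay above the control values of 9.20 to 9.63. Pkp2, a desmosomal plakophilin, averaged 6.97 ± 0.56 in mutant posterior and 7.73 ± 0.22 in control posterior palate, a difference of -0.76 (SE 0.21, adjusted p = 0.0253). By region limma called 0 of the 12 in the fit of all arrays (6 at an unadjusted p under 0.05), all 12 differences were negative (median -0.49), and 11 were called lower in the blocked fit.

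Of 16 transcription factors known to regulate keratin or epithelial genes, 1 was called by genotype. Cebpb averaged 10.28 ± 0.30 in mutant posterior and 10.68 ± 0.18 in control posterior palate (difference -0.40, adjusted p = 0.0384), and the median of the list was -0.03. By region limma called 0 of 16 in the fit of all arrays (4 at an unadjusted p under 0.05) and all 16 differences were negative (median -0.30). The smallest adjusted p values there were those of Grhl1 at -0.73 (adjusted p = 0.0883) and Tfap2a at -0.73 (adjusted p = 0.0941), and 8 of the 16 were called lower in the blocked fit.

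Other intermediate filament genes, expressed in muscle, nerve, mesenchyme and the nuclear lamina, served as a comparison. By genotype 1 of 16 was called, Lmna, the gene of lamins A and C, at 11.13 ± 0.18 in mutant posterior and 10.69 ± 0.09 in control posterior palate (difference 0.44, adjusted p = 0.00312). By region 2 were called, Des (desmin of muscle) at 9.91 ± 1.14 in mutant posterior, 8.79 ± 0.33 in control posterior and 6.90 ± 0.43 in control anterior palate, and Nes (nestin). The region differences were 1.89 (adjusted p = 0.00921) for Des and 1.09 (adjusted p = 0.0164) for Nes.

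Markers of other tissues also moved with the groups, and their part in the keratin differences was not tested. The mean of 8 skeletal muscle markers was 10.83 ± 1.04 in mutant posterior, 9.74 ± 0.47 in control posterior and 6.17 ± 0.83 in control anterior palate. Of these, 1 of 8 was called by genotype (Ckm at 2.36, adjusted p = 0.00986) and 8 of 8 by region. Mutant array 1, the lowest mutant array for the 11 class keratins, had the highest muscle mean at 12.15. Of 5 nasal secretory markers 2 were called lower in mutants, Bpifa1 at -1.68 (adjusted p = 0.0475) and Reg3g at -1.60 (adjusted p = 0.0183), and the list mean was 7.33 ± 0.86 in mutant posterior and 8.18 ± 0.16 in control posterior palate.

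Of 4 red cell markers 2 were called lower in mutants, with Hbb-y at -2.93 (adjusted p = 1.88e-06). Of 5 leukocyte markers 1 was called higher and 2 lower in mutants, and 2 were called higher in posterior palate by region. Cartilage (1 of 5 called, Comp at 1.80, adjusted p = 0.0238) and nerve and glia (1 of 3, Sox10 at 0.56, adjusted p = 0.0307) each had 1 gene higher in mutants. All 5 cartilage differences were positive (median 1.09). Of the 3 nerve and glia differences only that of Sox10 was positive, and the median was -0.60. Of 5 palate mesenchyme markers limma called 0 by genotype (1 at an unadjusted p under 0.05) and 0 by region (1). Of 5 tooth markers 0 were called by genotype (0 at an unadjusted p under 0.05) and 1, Ambn, by region at -2.14 (adjusted p = 0.0105).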

How the data were processed

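RNA from 18 samples was measured on Affymetrix 1-colour arrays. The deposited values are log2 expression values that the authors made with RMA, per the submitters' processing notes, without a version. Values were used as deposited and cover 45101 probe sets. Of these, 34945 have 1 gene symbol in the platform annotation, 932 have several, 9160 are unlisted and 64 are controls. The brightest probe set with 1 symbol stood for its gene, which gave 18193 genes, of which 18033 matched a RefSeq gene number. One probe set that names both Krt17 and Krt14 was not used. Array number and background limit the precision.

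Groups and numbers come from the sample titles, which list 6 samples a group where the design text says 5. The test was limma 3.58.1 (R 4.3.3, statmod 1.5.0), 2-sided, in 1 fit of the 3 groups with 15 residual degrees of freedom, with Benjamini-Hochberg adjustment over all genes. Intervals are 95% and unadjusted. The fit was tested on simulated data. Figures used matplotlib 3.10.9 in Python 3.11.15.

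The members and the lists were chosen with earlier results of these data known. Named genes are the 11 class keratins, every other called keratin, the 5 brightest others, and from each companion list the called genes that changed most (4 at most) or, with none called, the 2 with the smallest p. Krt23, Krt72, Krt75 and Krt80, the list members Cdh1 and Epcam, and Krt33b in the promoter search were named after their values were seen. Of 152 listed genes, 142 were measured, and the others were not analysed here.

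For each number, the anterior and the posterior control array were compared by how they deviated from their group means. These deviations correlated at 0.111 to 0.430 across genes, above 0.1 in 6 of 6 pairs, and were taken to pair them. The pairing rests on the data, not on the labels, and stays an assumption: equal numbers also fall in the same set of arrays (1 to 3 or 4 to 6), which could give such correlations. Between mutant and control posterior arrays the correlations were -0.222 to 0.157, above 0.1 in 2 of 6 pairs. Alternatives were other probe set rules, a filter on dim genes, median centring, other variance models, array weights, blocks by number or set, an epithelium covariate, a stricter threshold and leaving out each array. The control-only blocks and the covariate without mutant array 1 were added after seeing the data.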

Additional observations from a re-analysis of the deposited data

Results flagged for a closer look

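In the mutant posterior group 3 of 11 class keratins had 1 array far below the other 5, and it was array 1 each time. Krt15 read 11.6 there, with 13.2 in the nearest mutant array. Krt8 read 10.3, with 12.5 in the nearest. Krt18 read 9.09, with 11.1 in the nearest. The check was run on 57 sets of values (19 keratins in 3 groups) and flagged 3 in all. Chance alone sets an array apart in about 1 of 20 groups when the groups are independent. The 57 sets share arrays, so the number of flags cannot be set against that rate. All 3 flags fell on mutant array 1. The same array had the lowest mean of the non-keratin epithelial genes and the highest mean of the skeletal muscle markers. The part of tissue content in these values was not tested.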

How the results depend on the processing

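Krt4, Krt13, Krt6b and Krt79 kept their direction and their call when any 1 of the 18 arrays was left out. In the counts that follow, the number in brackets is that of all genes called in the same fit, which also changed. The number of keratins called by genotype was 5 (2449). It was 1 with 4 sets of arrays as a random block (588) and 11 with the epithelium covariate (1996). It was 14 with that covariate and without mutant array 1 (2750). It was 4 to 8 when 1 array was left out (1512 to 2735), the 8 without mutant array 4 (2424). With array weights Krt17 was called lower at -0.75 (adjusted p = 0.0363), as it was in arrays 4 to 6. In arrays 4 to 6 (3345), 1 other simple and ductal keratin and 1 suprabasal keratin were called lower as well. The number of keratins called by region was 2 (695). It was 0 with every probe set tested (837 probe sets) and with dim genes left out (468). It was also 0 in arrays 1 to 3 (148), in arrays 4 to 6 (220) and at an adjusted p under 0.01 (251). It was 1 after median centring (640), 7 in the compared groups only (2151) and 13 with array weights (3356). It was 9 with the control sets as a fixed block (3118), and 5 with the covariate and without mutant array 1 (1189). Leaving out 1 array gave 0 to 3 (389 to 1213). Krt33b lost its call in 8 and Krt2 in 9 of 18 such fits. The replicate block over the control arrays alone gave 13 (3156), and over all 18 arrays it gave 6 by genotype (2495) and 2 by region (677).

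Genotype differences near 0 changed sign in some fits. Krt15 was 0.23 with array weights and 0.27 in arrays 4 to 6. In arrays 1 to 3 Krt14 was 0.013, Krt7 0.10 and Krt10 0.21. The lowest Krt10 difference among the alternative fits was -0.56. With the epithelium covariate, Krt14 was 0.094, Krt15 0.42, Krt8 0.065, Krt18 0.13, Krt19 0.035 and Krt7 0.35. With the covariate and without mutant array 1 these were 0.10, 0.42, 0.058, 0.12, 0.036 and 0.35. Leaving out 1 array gave -0.10 to 0.32 for Krt15, -0.62 to 0.018 for Krt18 and -0.32 to 0.19 for Krt7. By region, Krt8 was 0.00327 after median centring. With the covariate Krt15 was 0.26, Krt8 0.45, Krt18 0.33, Krt13 0.091 and Krt19 0.23. Without mutant array 1 as well, Krt15 was 0.19, Krt8 0.31, Krt18 0.16, Krt17 0.045, Krt13 0.57, Krt19 0.26 and Krt10 0.15. The cause of these changes was not tested.

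Over all genes, the number called by genotype was 2449, and 4835 with every probe set tested, 1572 in the compared groups only, 588 with 4 sets as a random block and 905 at an adjusted p under 0.01. By region it was 695, and 2151 in the compared groups only, 3356 with array weights, 3156 with the replicate block in control arrays, 3118 with the control sets as a fixed block, 1322 with 4 sets as a random block, 148 in arrays 1 to 3, 220 in arrays 4 to 6, 1189 with the covariate and without mutant array 1, and 251 at an adjusted p under 0.01. Leaving out 1 array gave 1512 to 2735 by genotype and 389 to 1213 by region. Dim keratins, 33 of 48 at or below the median of all gene means, are limited by background.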
